A study of Mus musculus with 8 samples.

Results

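The surface receptors by which follicular helper T (Tfh) cells are recognised, together with SAP, the adaptor protein of SLAM receptors, were followed in mouse CD4 T cells labelled as wild type or as carrying a T cell-specific deletion of Bcl6. The set held 9 genes: Cxcr5, Pdcd1, Icos, Btla, Cd200, Sh2d1a (the gene of SAP), Slamf1, Slamf6 and P2rx7. Each gene was represented by the probe set that carried its symbol alone, and where several did, by the one with the highest mean over the arrays; each of the 9 had 1 probe set, among 19938 genes named on the array. Tfh cells help B cells make antibody in germinal centres. Bcl6, a transcriptional repressor, is required for their formation, and CXCR5, PD-1 and ICOS are the receptors most used to mark them. SAP links SLAM receptors to kinases inside the cell and is known for its part in the contact between Tfh and B cells.

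Messenger RNA was measured on 8 Affymetrix whole-transcript arrays. Sorting gave naive CD4 T cells of wild-type mice (WT, 4 arrays) and of mice in which Bcl6 was deleted conditionally in T cells (KO, 4 arrays). Cells of both genotypes then received the same 24 hours of culture with antibodies against CD3, CD28, IL-4, IFNg and TGFb and with IL6 and IL21. The labels call the cultured cells Tfh cells, but they name neither the Cre driver nor the age of the mice. Nor do they say whether the 4 arrays of a genotype came from separate mice, so the spread behind each p-value is that between arrays and may in part be technical. Values are log2 signals as deposited, and a difference is KO minus WT on that scale.

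All 7 CD4 T cell markers named on the array were above the expression filter, and so were 9 of 10 Tfh markers, Ascl2 being the exception. This Tfh list included Cxcr5, Pdcd1, Icos and Sh2d1a of the set itself, so it is no separate check of cell identity. Bcl6, also on the list, was exempt from the filter but lay above its level in all 8 arrays. The filter asked for a value above the 40th percentile of named probe sets in at least 4 arrays, which left 11926 genes for the test. Of 8 named B cell markers only Cd79b passed it, and the mean of these 8 lay between 6.14 and 6.23 in the WT-labelled and between 6.0 and 6.33 in the KO-labelled arrays. Of 9 myeloid and dendritic markers 1 passed (means of 6.18 to 6.31 and 6.26 to 6.37). Of 5 NK cell markers 1 passed, Eomes. The 2 CD8 T cell markers passed as well. Cd8a read 7.05 to 7.73 in the WT-labelled and 7.06 to 7.59 in the KO-labelled arrays. Cd8b1 read 9.44 to 9.75 and 9.35 to 9.83. KO replicate 1 stood apart: its median absolute deviation from its group was 0.115, against 0.0350 to 0.0725 in the other arrays. It correlated best with WT replicate 3. The signal of Bcl6 ran from 9.08 to 9.19 in the KO-labelled and from 8.61 to 8.91 in the WT-labelled arrays. Its single probe set cannot be placed against the deleted part of the gene here and so checks no label, and every direction below is that of the arrays as labelled.

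Among the 9 genes, Cd200 alone passed the threshold for a genotype difference over all 8 arrays, and it was higher in the KO-labelled cells. A gene that missed the threshold is not thereby shown to be unchanged. The other members split: Btla and Sh2d1a had positive differences of 0.23 and 0.28, whereas Cxcr5, Pdcd1, P2rx7 and Slamf6 had negative differences of -0.26 to -0.15, none of them past the threshold. Icos and Slamf1 lay within 0.05 of no difference. Of the 9, 1 was called higher and 0 lower by limma, at a Benjamini-Hochberg adjusted p under 0.05 over all tested genes, which called 1.32% of them (0.646% higher, 0.671% lower). At an unadjusted p under 0.05, 3 were higher and 2 lower, where 16.6% of all genes had such a p. The median difference of the 9 was -0.05, beside -0.02 over all tested genes. All 9 were above the filter level in all 8 arrays.

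Leaving out KO replicate 1 altered this picture for several members. Without it limma called Cd200, Btla and Sh2d1a higher and P2rx7 lower, 4 of 9, where the same fit called 6.56% of all genes. KO replicate 1 was the lowest of the 4 KO-labelled arrays for 8 of the 9 members and the highest for P2rx7. Over all tested genes it was the lowest in 53.8% and the highest in 26.0%. Results are therefore given with and without that array.

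**Figure D1:**
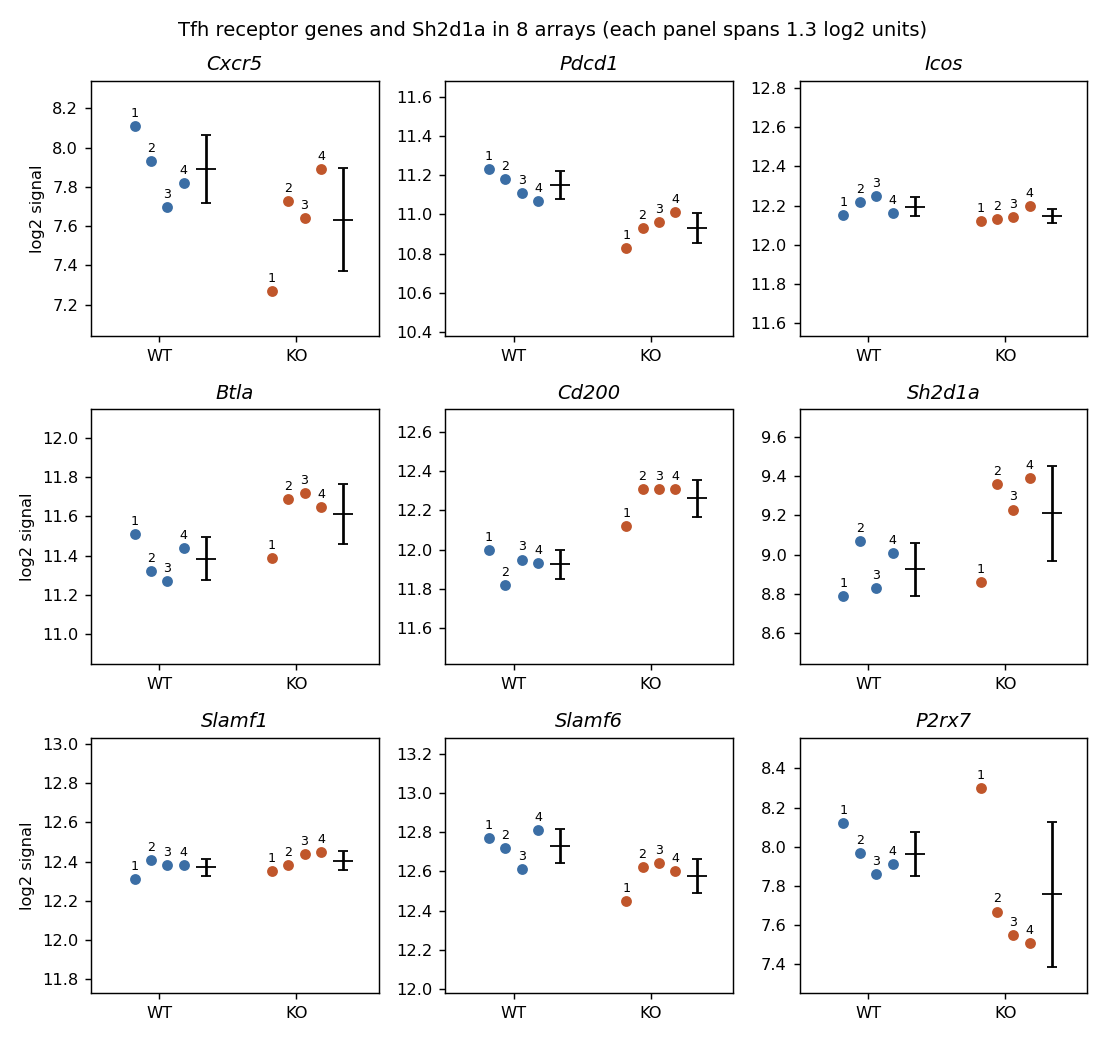
Log2 signal of the 9 genes in each array, WT-labelled in blue and KO-labelled in orange, numbered by replicate, with the mean and SD of each genotype (n = 4) as a black bar. Each panel spans the same range of 1.3 log2 units. For Cd200 all KO-labelled points lie above all WT-labelled points, with KO replicate 1 the lowest of them, and for Pdcd1 all lie below. For Btla and Sh2d1a, KO replicate 1 lies within the WT-labelled range and the other 3 KO-labelled points lie above it. For P2rx7, KO replicate 1 is the highest point and the other 3 lie below all WT-labelled points.

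CD200 is an immunoglobulin-family glycoprotein whose receptor, CD200R, delivers an inhibitory signal, and it is abundant on Tfh cells. Cd200 (probe set 10439651) read 12, 11.82, 11.95 and 11.93 in WT replicates 1 to 4 and 12.12, 12.31, 12.31 and 12.31 in KO replicates 1 to 4. The genotypes did not overlap, and the lowest KO-labelled value was again replicate 1. Cd200 rose 1.26-fold, a difference of 0.34 ± 0.0610 (SE; 95% interval 0.20 to 0.47; limma adjusted p = 0.0380; exact permutation p = 0.0286, two-sided, the smallest that 4 against 4 arrays can give). In the order of p over all tested genes it stood in place 82. Without KO replicate 1 the rise was 0.39 (1.31-fold, limma adjusted p = 0.00413). The call was lost without each of the other 7 arrays in turn, with adjusted p between 0.0594 and 0.143, while the difference stayed between 0.30 and 0.36. In bulk RNA a change in the share of cells that carry a transcript and a change in its amount per cell cannot be told apart.

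BTLA is an inhibitory receptor of T and B cells that binds HVEM, a member of the TNF receptor family encoded by Tnfrsf14. Btla (probe set 10435982) read 11.51, 11.32, 11.27 and 11.44 in WT replicates 1 to 4 and 11.39, 11.69, 11.72 and 11.65 in KO replicates 1 to 4. Replicates 2 to 4 of the KO-labelled group lay above every WT-labelled value, and replicate 1 lay within the WT-labelled range. The difference was 0.23 ± 0.0823 (SE; 95% interval 0.04 to 0.41; limma adjusted p = 0.206; exact permutation p = 0.0857), and without KO replicate 1 it was 0.30 ± 0.0611 (limma adjusted p = 0.0223). Leaving out any other array gave adjusted p up to 0.440 and no call.

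Btla and Cd200 are neighbours on chromosome 16, the chromosome of Bcl6: in the RefSeq gene order (GRCm38.p6, used for order and names) 0 other tested genes lay between them. This neighbourhood was looked at after the values were seen. Beyond Cd200 the next 5 tested genes were Tagln3, Abhd10, Plcxd2, Cd96 and Trat1, with differences of -0.16, -0.26, -0.46, -1.12 and 0.12, of which Plcxd2 and Cd96 fell (limma adjusted p = 0.00616 and 0.00728). Before Btla, the nearest 5 tested genes, Atg3, Slc35a5, Gtpbp8, Nepro and Spice1, differed by 0.08, -0.17, 0.14, 0.00 and 0.03, with limma adjusted p from 0.264 to 0.993. Gtpbp8 was also called higher (0.26, limma adjusted p = 0.0266) and Abhd10 lower (-0.19, 0.0395) without KO replicate 1. Of 364 tested genes placed on chromosome 16, 4.67% were called, against 1.21% of 11532 placed elsewhere; without KO replicate 1 the shares were 10.2% and 6.43%. Whether this position had a part in the rise of Cd200 was not tested.

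The stretches upstream of the Cd200 and Btla starts are shown because these adjacent genes both had positive differences, and that of P2rx7 because its difference was negative and was called without KO replicate 1. RefSeq's promoter table (GRCm38.p6) held 6 of the 9 genes and lacked Cxcr5, Icos and Sh2d1a. Each stretch below is the 250 bases before an annotated start, 5′ to 3′ along the gene, with capitals for a match to the AP-1 motif.
Cd200 (GRCm38.p6, chr16:45409054-45409303, minus strand): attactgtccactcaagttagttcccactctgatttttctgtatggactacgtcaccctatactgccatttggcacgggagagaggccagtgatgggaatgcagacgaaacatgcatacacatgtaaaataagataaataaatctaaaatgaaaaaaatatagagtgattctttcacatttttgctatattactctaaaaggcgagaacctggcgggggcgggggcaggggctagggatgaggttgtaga
Btla (GRCm38.p6, chr16:45224087-45224336, plus strand): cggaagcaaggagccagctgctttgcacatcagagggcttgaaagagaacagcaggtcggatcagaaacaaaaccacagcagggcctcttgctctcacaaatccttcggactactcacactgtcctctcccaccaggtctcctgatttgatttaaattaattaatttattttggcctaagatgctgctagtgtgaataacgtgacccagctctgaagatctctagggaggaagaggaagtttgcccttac
P2rx7 (GRCm38.p6, chr5:122643677-122643926, plus strand): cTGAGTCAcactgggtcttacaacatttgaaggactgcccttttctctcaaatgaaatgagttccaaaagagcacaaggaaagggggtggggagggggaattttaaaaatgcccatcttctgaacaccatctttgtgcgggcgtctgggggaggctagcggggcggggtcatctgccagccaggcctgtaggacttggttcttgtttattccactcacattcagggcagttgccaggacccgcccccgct
Windows of 300 bases, reaching 50 bases past the start, were searched on both strands for a BCL6 motif (TTCCTNGAA), a STAT motif (TTCNNNGAA, which contains every BCL6 match), an AP-1 motif (TGANTCA) and an NFAT motif (GGAAAA). The single match among the 7 windows of the 6 genes was the AP-1 motif at bases -249 to -243 of P2rx7. Over all 32817 such windows in the table, 1.59% held the BCL6 letters, 8.29% the STAT, 7.81% the AP-1 and 23.3% the NFAT letters. A missing match says only that these letters are not in these windows.

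**Figure D2:**
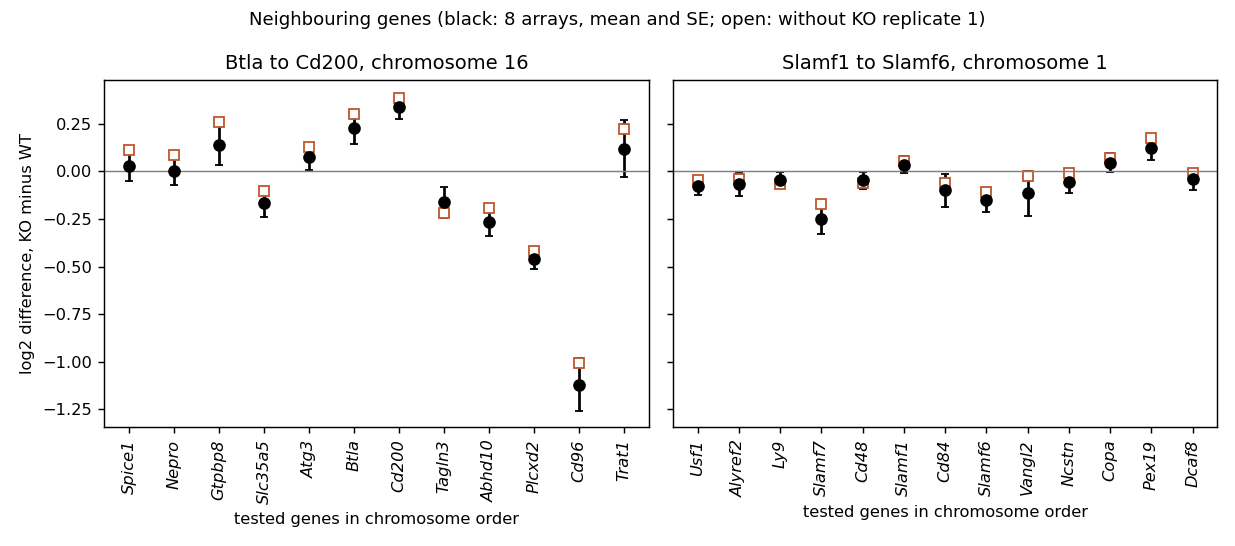
Log2 difference, KO minus WT, of tested genes in chromosome order around Btla and Cd200 (left) and around Slamf1 and Slamf6 (right). Black points with SE bars use all 8 arrays and open squares leave out KO replicate 1; Btla and Cd200 stand side by side above 0, Plcxd2 and Cd96 beyond them at -0.46 and -1.12, and the genes of the SLAM cluster lie between -0.25 and 0.04.

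SAP, encoded by Sh2d1a on the X chromosome, consists of little more than an SH2 domain that binds the tails of SLAM receptors and recruits the kinase Fyn. Sh2d1a (probe set 10599411) read 8.79, 9.07, 8.83 and 9.01 in WT replicates 1 to 4 and 8.86, 9.36, 9.23 and 9.39 in KO replicates 1 to 4. The pattern was that of Btla, with KO replicate 1 at the WT level and the other 3 above it. The difference was 0.28 ± 0.115 (SE; 95% interval 0.03 to 0.54; limma adjusted p = 0.250; exact permutation p = 0.0857). Without KO replicate 1 it was 0.40 ± 0.0750, or 1.32-fold (limma adjusted p = 0.0174), and in the other 7 fits with 1 array left out the adjusted p reached 0.492.

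SLAMF1 and SLAMF6 are self-binding receptors whose tails dock SAP. Slamf1 (probe set 10351667) read 12.31, 12.41, 12.38 and 12.38 in the WT-labelled arrays and 12.35, 12.38, 12.44 and 12.45 in the KO-labelled arrays. Its groups overlapped, with a difference of 0.04 whose 95% interval ran from -0.07 to 0.14 (limma adjusted p = 0.788). Slamf6 (probe set 10351691) read 12.77, 12.72, 12.61 and 12.81 against 12.45, 12.62, 12.64 and 12.60. Here 1 WT-labelled array, replicate 3, lay within the KO-labelled range, and the difference was -0.15 (95% interval -0.29 to -0.01; limma adjusted p = 0.254). Without KO replicate 1 neither passed (limma adjusted p = 0.455 and 0.224). Their genes lie in the SLAM cluster of chromosome 1, with 1 tested gene, Cd84, between them.

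Of Cxcr5, Pdcd1 and Icos, the genes of the receptors most used to mark Tfh cells, Pdcd1 came nearest to a call. PD-1, its product, is an inhibitory receptor induced on activated T cells. Pdcd1 (probe set 10356866) read 11.23, 11.18, 11.11 and 11.07 in WT replicates 1 to 4 and 10.83, 10.93, 10.96 and 11.01 in KO replicates 1 to 4. Every KO-labelled value lay below every WT-labelled value, as in 10.8% of all tested genes in either direction. The difference was -0.21 ± 0.0559 (SE; 95% interval -0.34 to -0.09; limma adjusted p = 0.0931; exact permutation p = 0.0286), and it missed the threshold. With each array left out the adjusted p lay between 0.0609, without KO replicate 1, and 0.280.

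CXCR5 responds to CXCL13, the chemokine that draws cells into B cell follicles. Cxcr5 (probe set 10592888) read 8.11, 7.93, 7.70 and 7.82 in WT replicates 1 to 4 and 7.27, 7.73, 7.64 and 7.89 in KO replicates 1 to 4. The groups overlapped, and the lowest value was again KO replicate 1. The difference of -0.26 (95% interval -0.55 to 0.03; limma adjusted p = 0.361) became -0.14 without that array (95% interval -0.35 to 0.07; limma adjusted p = 0.374). Icos, the costimulatory receptor of the CD28 family (probe set 10346799), read 12.15, 12.22, 12.25 and 12.16 against 12.12, 12.13, 12.14 and 12.20. Its interval was among the narrowest of the set, -0.15 to 0.05 around -0.05 (limma adjusted p = 0.675). The lower end was -0.16 with arrays centred on their median and also without a filter. The interval measures the spread between arrays, and separate mice are not stated, so it sets no bound between mice.

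P2RX7 is a cation channel opened by extracellular ATP and is known for limiting the number of Tfh cells in the gut. P2rx7 (probe set 10525419) read 8.12, 7.97, 7.86 and 7.91 in WT replicates 1 to 4 and 8.30, 7.67, 7.55 and 7.51 in KO replicates 1 to 4. KO replicate 1 was the highest of all 8 arrays, whereas the other 3 KO-labelled arrays lay below every WT-labelled array. Over all arrays the difference was -0.21 ± 0.155 (SE; 95% interval -0.55 to 0.14; limma adjusted p = 0.580; exact permutation p = 0.314). Without KO replicate 1 it was -0.39 ± 0.0674, a ratio of 0.764 (limma adjusted p = 0.0131), and in the other 7 fits with 1 array left out the adjusted p reached 0.805. Of 4 listed markers of regulatory T cells, 2 had negative and 2 had positive differences: Foxp3 read 7.84 to 8.70 in the WT-labelled and 7.51 to 7.76 in the KO-labelled arrays (limma adjusted p = 0.0648) and Ikzf2 7.09 to 7.98 and 6.89 to 6.99 (0.114), whereas Il2ra and Ctla4, which activated T cells also express, differed by 0.11 each (limma adjusted p = 0.268 and 0.481). The mean of the 4 lay between 9.92 and 10.3 in the WT-labelled and between 9.83 and 9.84 in the KO-labelled arrays, and none of the 4 was called with all arrays. Foxp3 was called lower without KO replicate 1 (-0.72, limma adjusted p = 0.0304) and the other 3 were not. Their part in the differences of P2rx7 and Pdcd1 was not tested.

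**Figure D3:**
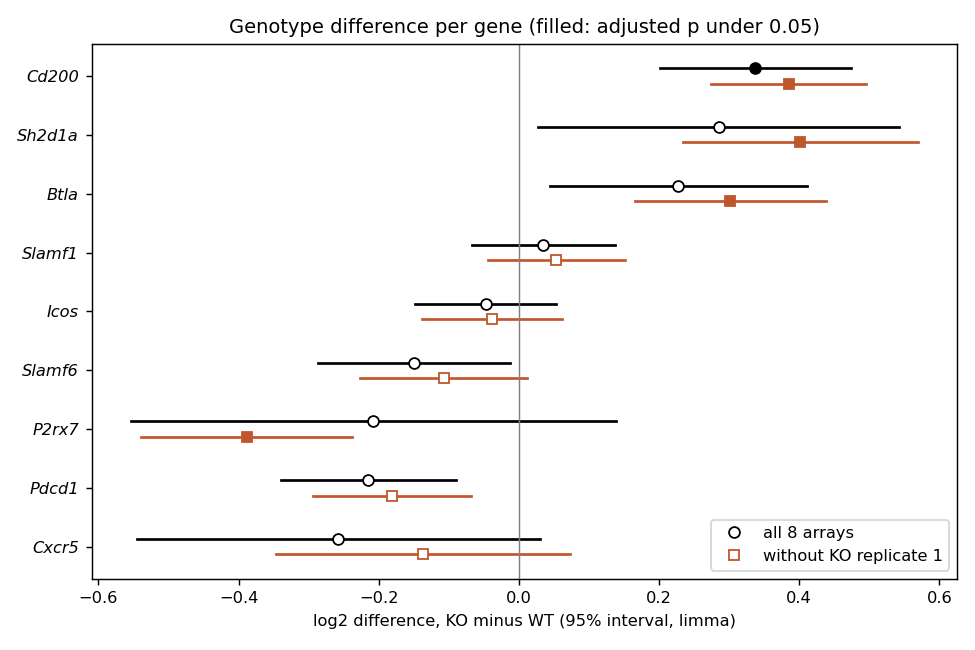
Log2 difference, KO minus WT, with its 95% interval from limma for each of the 9 genes. Circles use all 8 arrays and squares leave out KO replicate 1, filled where the adjusted p is under 0.05: Cd200 is filled in both, and Sh2d1a, Btla and P2rx7 only without that array.

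Over the 8 fits with 1 array left out, limma called Cd200, Btla, Sh2d1a and P2rx7 in 1 fit each, the one without KO replicate 1. Without that array, 5 of the 9 genes had groups that did not overlap (Btla, Cd200 and Sh2d1a higher, Pdcd1 and P2rx7 lower in the KO-labelled arrays), beside 22.6% of all tested genes. With all 8 arrays there were 2, Cd200 and Pdcd1, beside 10.8% of all tested genes. The sign of each member's difference was the same in all 8 such fits.

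**Figure D4:**
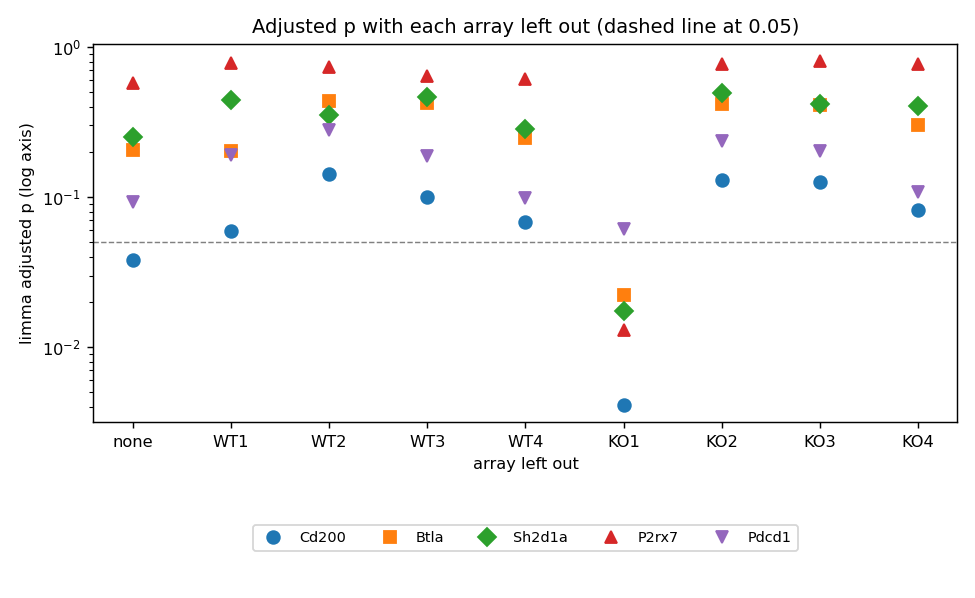
Limma adjusted p, on a log axis, of Cd200, Btla, Sh2d1a, P2rx7 and Pdcd1 with no array left out and with each of the 8 arrays left out in turn; the dashed line marks 0.05. Cd200 lies below the line with all arrays (0.0380), and 4 of the 5 genes lie below it without KO replicate 1.

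Ligands, signalling partners and relatives of the 9 genes showed 1 call. Of 66 listed genes, 60 were named on the array and 46 were tested, of which 0 were higher and 1 was lower by limma; 16 had positive and 30 negative differences, with a median of -0.05. Over all 11926 tested genes 1.32% were called, 5021 differences were positive and 6905 negative. Of these genes 16.6% had an unadjusted p under 0.05, 733 higher and 1247 lower, to be set beside the list counts below. Without KO replicate 1, 1 of the 46 was higher and 4 were lower, where 6.56% of all genes were called. The genes named here were set by the rule given with the methods, with exceptions picked after their values were seen. These were Prkcq, Lag3, Cxcr4, Slamf7, Slamf9 and Tigit, and the genes given as below the filter other than Entpd1.

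The call was Tnfrsf14, the gene of the BTLA ligand HVEM. It read 10.46, 10.41, 10.39 and 10.35 in WT replicates 1 to 4 and 10.22, 10.14, 10.12 and 10.15 in KO replicates 1 to 4, with no overlap. Tnfrsf14 fell by 0.24 (ratio 0.844, SE 0.0456; limma adjusted p = 0.0423; exact permutation p = 0.0286). Leaving out KO replicate 1 gave an adjusted p of 0.0101, and leaving out any other array lost the call, with adjusted p between 0.0515 and 0.157. Its alternative ligand LIGHT, encoded by Tnfsf14, differed by 0.01 (limma adjusted p = 0.977). Of the 10 tested genes in this list of ligands and partners of PD-1, BTLA and CD200, Tnfrsf14 was the only call. An unadjusted p under 0.05 was seen for 4, all lower, where 16.6% of all genes had such a p, 733 higher and 1247 lower. The PD-1 ligand genes Cd274 and Pdcd1lg2 differed by -0.08 and 0.04 (limma adjusted p = 0.656 and 0.891). The inhibitory receptor genes Lag3 and Tigit differed by -0.28 each (limma adjusted p = 0.0626 and 0.0861), and Lag3 passed without KO replicate 1 (0.0159). Cd200r1, the CD200 receptor, was below the filter in all 8 arrays.

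In the SLAM and SAP list none of 10 tested genes passed by limma, and at an unadjusted p under 0.05 there were 1 higher and 4 lower. Fyn, the kinase that SAP recruits, had the smallest p: it read 11.86 to 11.98 in the WT-labelled and 11.63 to 11.79 in the KO-labelled arrays, a difference of -0.22 (limma adjusted p = 0.0793). Prkcq, the gene of protein kinase C theta, which acts after SAP and Fyn, differed by -0.17 (limma adjusted p = 0.121) and passed without KO replicate 1 (0.0336). The SLAM receptor genes Ly9, Cd84 and Slamf7 differed by -0.04, -0.10 and -0.25 (limma adjusted p = 0.685, 0.643 and 0.152). Slamf9, the 1 gene of the list with a positive difference, differed by 0.19 (limma adjusted p = 0.225). The SAP relatives Sh2d1b1 and Sh2d1b2 were below the filter in all 8 arrays.

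Around ICOS, none of 11 tested genes passed, and 1 had an unadjusted p under 0.05. That gene, Foxo1, a transcription factor restrained by PI3-kinase signals, differed by -0.13 (limma adjusted p = 0.246). Cd28 and Ctla4, the relatives of Icos, differed by 0.04 and 0.11, and Rc3h1, the gene of the RNA-binding protein Roquin that limits Icos transcripts, by 0.03 (limma adjusted p = 0.764, 0.481 and 0.824). Icosl, the ligand gene, was below the filter in all arrays.

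Around CXCR5, none of 10 tested homing genes passed with all arrays, and 2 were higher and 2 lower at an unadjusted p under 0.05. Rgs1, a brake on chemokine receptor signalling, read 10.71 to 11.16 in the WT-labelled and 11.13 to 11.49 in the KO-labelled arrays. Its difference was 0.41 (limma adjusted p = 0.103), and it passed without KO replicate 1 (0.48, adjusted p = 0.0285), as did Cxcr4 in the other direction (-0.24, adjusted p = 0.0462). Ccr7, the receptor that holds T cells in the T zone, differed by 0.10 with no overlap (limma adjusted p = 0.267), and Gpr183, a guidance receptor for oxysterols, by -0.02 (0.868). Cxcl13 was below the filter in all 8 arrays.

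Around P2RX7, none of 5 tested purine genes passed, and 1 had an unadjusted p under 0.05. This was Nt5e, the gene of the ectonucleotidase CD73, which read 7.19 to 7.58 in the WT-labelled and 7.0 to 7.17 in the KO-labelled arrays (difference -0.32, limma adjusted p = 0.0838). The related channel gene P2rx4 differed by -0.09 (limma adjusted p = 0.427), and Entpd1, the gene of the ATP-degrading enzyme CD39, was below the filter in all arrays.

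**Figure D5:**
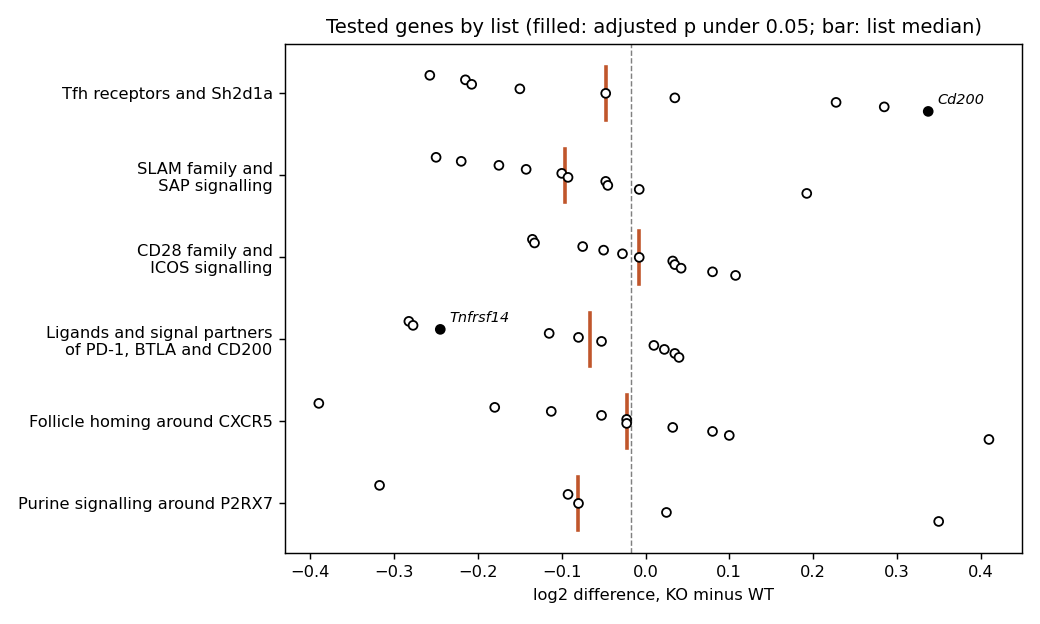
Log2 difference, KO minus WT, of each tested gene over all 8 arrays, for the 9 genes of the set (top) and for 5 lists of their ligands, partners and relatives. Filled points passed the threshold (Cd200 and Tnfrsf14), orange bars are list medians from -0.10 to -0.01, and the dashed line is the median of all tested genes, -0.02.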

How the data were processed

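The authors deposited 1 log2 signal per probe set and array, rounded to 2 decimals; RMA and Partek were used, per the submitters' processing notes, and versions, annotation release and genome build are not given in the sources used here. RMA's standard quantile step draws the distributions of arrays together, so differences in total RNA content are not visible. Array medians lay between 7.35 and 7.42. The 40th percentiles lay between 6.91 in KO replicate 4 and 7.15 in KO replicate 1, so the deposited distributions were not equal. The platform annotation gave 1 symbol for 21789 of 35556 probe sets; probe sets with several symbols named no gene. Genotypes, from the sample titles, entered a two-sided limma test without block (lmFit and eBayes; limma 3.58.1, R 4.3.3), adjusted by Benjamini-Hochberg over 11926 genes, after a check on simulated data; Bcl6 was exempt from the filter. The number of arrays limits the precision. Members and lists were chosen with earlier results of these data known. Partner genes were named if called, if of smallest p in their list, or if direct partners fixed by textbook knowledge. Alternatives concerned scaling, filter, probe sets, prior, array weights, replicate block, threshold and each array left out. The neighbouring genes were examined after the values were seen.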

Additional observations from a re-analysis of the deposited data

Results flagged for a closer look

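In 1 of 54 groups of 4 values, a single array was set far apart from its group. The groups were those of the 9 genes of the set, Bcl6 and the partner genes named by the rule. About 2.7 such groups arise by chance. The group set apart was Cd200 in KO replicate 1, at 12.12 where the other 3 KO-labelled arrays all read 12.31, on values rounded to 2 decimals.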

How the results depend on the processing

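Cd200 was the 1 member called higher under quantile normalization, the filter at the 50th percentile, the mean over probe sets, the intensity trend and the threshold of 0.1. The last setting is no check of Cd200, because a looser threshold cannot lose a call. The mean over probe sets is hardly one, because each member had 1 probe set and kept its values. The count of members called higher was 0 with arrays centred on their median (Cd200 adjusted p = 0.0555), 0 without a filter (0.0769) and 3 with array weights, and lay between 0 and 3 with each array left out. The count called lower, 0 with all arrays, was 1 with the intensity trend, 1 at the threshold of 0.1 (Pdcd1 in both) and 2 with array weights (Pdcd1 and P2rx7), and 0 to 1 with each array left out. For partner genes the count called higher was 2 with array weights and 0 to 1 with each array left out. The count of partners called lower was 1 with all arrays, 0 with centring, 2 with quantile normalization, 0 without a filter, 2 with the filter at the 50th percentile, 5 with the intensity trend, 13 with array weights, 5 at the threshold of 0.1 and 0 to 4 with each array left out. Calls over all genes, 157 in all, ranged from 36 under the replicate block to 1980 with array weights among the alternatives that kept all arrays and the threshold, and from 31 without WT replicate 2 to 782 without KO replicate 1 with each array left out. No member's difference changed sign in any alternative. Only centring, quantile normalization, array weights and leaving out an array could have changed it. The filters, the mean over probe sets, the intensity trend, the replicate block and the looser threshold left every member's difference as it was. Among the alternatives that kept all arrays, Btla, Sh2d1a and P2rx7 passed with array weights alone, which gave KO replicate 1 the lowest weight, 0.176.

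The labels do not say whether replicate numbers pair the arrays. Deviations of same-numbered arrays from their group correlated at 0.0111, 0.145, -0.174 and 0.308. Those of differently numbered arrays ran from -0.421 (WT3, KO4) to 0.460 (WT3, KO1). Deviations within a group are tied to each other, so these values cannot settle whether the arrays were paired. With the replicate block 0 members were called higher (Cd200 difference 0.34, adjusted p = 0.109) and 0 partners lower. Centring and quantile normalization moved the median difference by 0.010 and 0.013.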
